A study of Mus musculus with 39 samples.

Results

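Of 39 arrays of mouse subcutaneous adipose RNA, 6 held far less signal for immediate-early genes than the rest, and every other gene was described on these 6 low arrays against the other 33. The arrays were chosen by a score, which was the mean level of Fos, Fosb, Junb, Egr1, Atf3 and Ier2 on each array, and the 6 arrays with the lowest score were taken. A level was the log2 of the processed intensity minus the log2 of the 75th percentile of all non-control spots on that array, so that a gene as bright as that percentile has a level of 0, and a gene with several probes was represented by its brightest probe. Because the low arrays were selected on levels of the same arrays, the differences between the low and the other arrays are descriptions with no test.

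The arrays were made from C57BL/6J mice that were weaned at 3 to 4 weeks of age and then fed 1 of 5 diets. LFC was a low-fat control diet (10 arrays), HFC was a diet high in fat and sucrose (11 arrays), and HF5, HF20 and HF75 were that same diet with 5, 20 or 75 µg of KAL-1, a botanical formulation (6 arrays each). Each diet had 1 array per time point. The time points were Week 3 and then every 3 weeks up to Week 18 for all diets, LFC and HFC were in addition taken at Week 0 and at Day 6, 10 and 14, and only HFC at Day 1. No allele or transgene was named for any group, and the sex of the mice and the number of mice behind an array were not given. The study's methods count the weeks from Day 14, which makes Week 0 the same time on diet as Day 14. All tissue was frozen in liquid nitrogen before RNA was extracted. The arrays were treated as separate samples, and whether they came from separate animals was not stated.

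Immediate-early genes are transcribed within minutes when a cell meets a growth factor, a cytokine or stress, because the proteins that switch them on are already present and need only be modified. Their RNAs and proteins are short-lived, so a high level marks recent signalling. Several encode transcription factors that then drive a later wave of genes, among them cytokines, chemokines and feedback inhibitors, and in adipose tissue these genes respond to hormones, nutrients and inflammatory signals in adipocytes, vessels and immune cells alike.

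The 6 low arrays were HFC Day 10 with a score of -1.11, HF75 Week 3 with -0.95, HFC Day 1 with -0.92, HFC Day 6 with -0.87, LFC Day 6 with -0.84 and LFC Week 12 with -0.78. Their mean score was -0.91 ± 0.11 (SD, n = 6). The scores of the other arrays lay between 4.27 and 5.92, and their mean was 5.18 ± 0.39 (SD, n = 33, median 5.21). The highest score among the low arrays was that of LFC Week 12, and the next array up was LFC Week 3 at 4.27, so the members just inside and just outside the threshold were 5.05 apart. Between any other neighbours in the order of scores the gap was at most 0.34. The scores therefore fell into 2 separate groups with nothing in between, and the mean score differed by -6.09, which is 68.3-fold on the linear scale.

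The low arrays came from 3 of the 5 diets. They were 3 of the 11 HFC arrays, 2 of the 10 LFC arrays and 1 of the 6 HF75 arrays, with 0 of 6 for both HF5 and HF20. By time point they were the single Day 1 array, both Day 6 arrays, 1 of 2 at Day 10, 1 of 5 at Week 3 and 1 of 5 at Week 12, and none of the arrays of Day 14, Week 0, Week 6, Week 9, Week 15 or Week 18. Of the 5 arrays of Day 1, Day 6 and Day 10, only LFC Day 10 was outside the low side. HFC Day 1, LFC Day 6 and HFC Day 6 have no other array at their time point on the high side, so for these the score and the time point cannot be told apart.

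**Figure D1:**
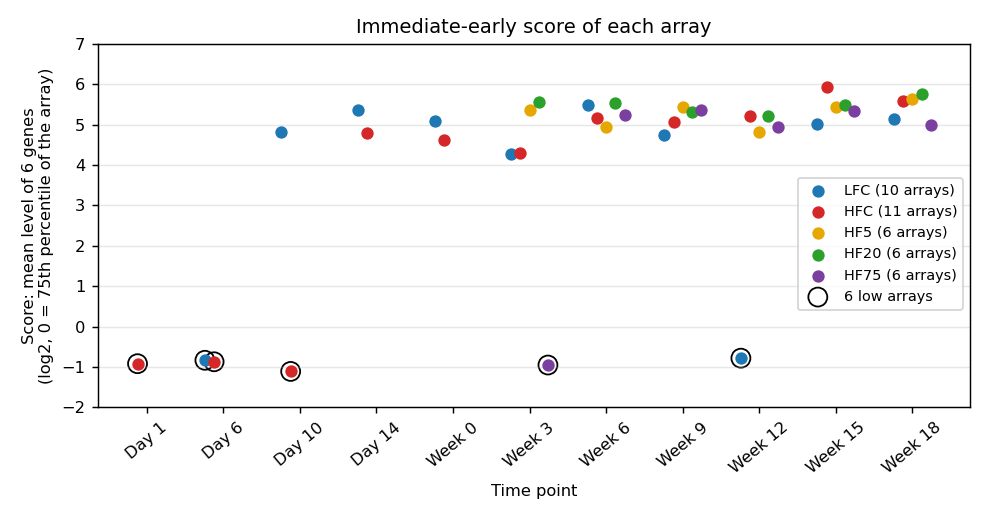
Immediate-early score (mean level of 6 genes, log2 relative to the 75th percentile of the array) of each of the 39 arrays against time point, with 1 point per array and colour for diet. The 6 low arrays sit between -1.11 and -0.78 and the other 33 between 4.27 and 5.92.

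Array quality overlapped between the low and the other arrays. The 75th percentile of intensity was 339 to 982 (median 807) on the low arrays and 108 to 1285 (median 612) on the others, the share of spots well above background was 49.3% to 82.1% against 52.1% to 87.8%, and 231 to 675 against 44 to 882 spots were saturated. The files carried 14 scan days. HFC Day 1, LFC Day 6 and HFC Day 6 were each the only array of their scan day, so for these 3 the score and the scan day cannot be told apart, while the other 3 low arrays shared a scan day with arrays of the high side. Between any 2 of the 39 arrays the correlation over genes was at most 0.986, so no array was a copy of another. Adiponectin (Adipoq), a hormone made by adipocytes, was at 1.75 on HFC Day 1, 4.07 on HF75 Week 3 and 6.03 to 6.55 on the other 4 low arrays, and at 1.12 to 6.74 (median 4.78) on the other 33, so adipocyte RNA was present on all low arrays.

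The values that chose the arrays were as follows, with the low arrays always in the order HFC Day 1, LFC Day 6, HFC Day 6, HFC Day 10, HF75 Week 3 and LFC Week 12. Fos, the founding subunit of the AP-1 transcription factor, was at -2.75, -3.53, -2.74, -3.19, -1.79 and -2.41 on the low arrays and at 2.88 to 5.89 (median 5.00) on the others. Fosb, its close relative, was at -3.99, -3.39, -4.24, -4.26, -4.92 and -4.65 against 0.57 to 4.15 (median 2.67), and was well above background on 5 of the 6 low arrays. Junb, a partner of the Fos proteins, was at 0.68, 1.43, 1.76, 1.39, 1.87 and 2.51 against 5.66 to 8.19 (median 6.81). For these AP-1 genes every low array was below every other array, and no low array was lowest for all of them.

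Egr1, a zinc finger transcription factor, was at -0.48, 0.11, -0.42, -0.54, -1.06 and 0.28 on the low arrays and at 4.89 to 6.62 (median 5.97) on the others. Atf3, a stress-induced factor of the ATF family, was at 0.31, -0.87, -0.80, -0.60, -0.22 and -1.56 against 4.16 to 6.76 (median 5.58). Ier2, a nuclear protein induced by growth factors, was at 0.71, 1.24, 1.20, 0.54, 0.40 and 1.13 against 4.42 to 5.68 (median 5.12). The low and the other arrays did not overlap for any of these genes. In mean level the low arrays were 200.1-fold lower for Fos, 121-fold for Fosb, 81.7-fold for Egr1, 70.3-fold for Atf3, 38.4-fold for Junb and 19-fold for Ier2. Junb was saturated on 25 of the 33 other arrays, Egr1 on 8 and Atf3 on 1, so these folds may be understated.

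The description covered 22723 genes that were well above background on at least 6 arrays. Every low array was below every other array for 376 of them, which is 1.65% of the genes compared, and above every other array for 476, which is 2.09%. Since the rule chose the arrays on these values, nothing is read from these shares, but they are the background for each count of members below. The counts moved with the arrays taken, to 466 and 830 without HFC Day 10 and to 139 and 28 with 7 arrays. The lower genes differed by more than the higher ones. Of the lower genes 85 differed by at least 16-fold, against 6 of the higher genes, and the median difference over all genes was -0.01. The 376 lower genes and the 85 include the score genes, which chose the arrays.

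**Figure D2:**
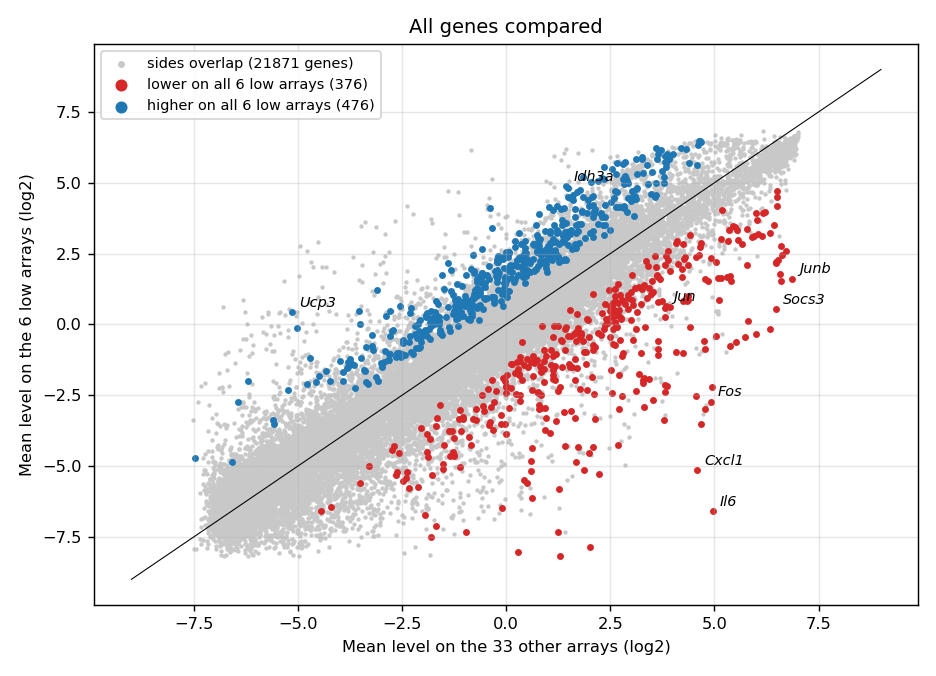
Mean level on the 6 low arrays (vertical axis, log2) against the mean level on the 33 other arrays (horizontal axis, log2), with 1 point for each of the 22723 genes compared, a line of equal level, and colour for genes on which the low and the other arrays do not overlap. Of the lower genes without overlap 85, score genes included, differ by at least 16-fold, against 6 of the higher ones.

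Outside the score, the longest lower list was that of further immediate-early genes, of which 45 were compared. All 45 had a lower mean on the low arrays and 29 were below every other array without overlap, and the median difference was -3.44 (-3.43 with the 3 genes that were not well above background on any low array set to their bound). The mean level of the list was -0.79 to -0.11 on the low arrays and 1.71 to 3.42 on the others. These genes were not in the rule, but they share the arrays and the RNA with it.

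Among transcription factors related to the score genes, Jun was lower by 3.19 in mean level (log2), Jund by 2.33, Fosl1 by 3.60, Fosl2 by 3.30 and Egr2 by 4.26, each without overlap. Egr4 was not well above background on any low array and was at least 17.7-fold lower. Myc, which drives cell growth, differed by -4.51, and the Krüppel-like factors Klf2, Klf4 and Klf6 by -2.85, -2.94 and -3.03, also without overlap. In the whole list 16 genes overlapped between the low and the other arrays, and the smallest differences, from -1.17 to -0.49, were those of the transcription factors Npas4, Klf10, Egr3, Srf and Cebpb. Srf, the factor that switches many immediate-early genes on, was at 1.15 to 3.43 on the low arrays and at 1.46 to 3.61 on the others.

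Nr4a1 and Nr4a2, orphan nuclear receptors of the Nr4a family, did not behave as a unit. Nr4a2 was at -2.53 to -1.04 on the low arrays and at 0.85 to 4.05 on the others. Nr4a1 was at 5.12, 1.39, 2.15, 1.24, 7.11 and 1.66 on the low arrays and at 5.79 to 7.42 (median 6.59) on the others. It was thus within the range of the others on HF75 Week 3, near it on HFC Day 1 and far below it on the other 4 low arrays.

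Several genes known to end such a response, picked from the lists after their values had been seen, were lower as well. Socs3, which blocks cytokine receptors, was at 0.35, 0.58, 1.23, 0.32, 0.31 and 0.45 on the low arrays and at 5.51 to 7.56 (median 6.56) on the others. Zfp36, which binds cytokine RNAs and speeds their decay, was at -1.49, -0.67, -0.43, 0.21, -1.78 and -0.42 against 3.25 to 6.12 (median 5.57). Neither gene overlapped, and the mean levels differed by -5.93 and -6.13. Socs3 was saturated on 19 of the other arrays. The phosphatases Dusp1 and Dusp2, which switch MAP kinases off, differed by -3.46 and -5.06 without overlap, while their relatives Dusp5 and Dusp4 differed by -3.08 and -0.05 and overlapped, the latter turning to 0.05 under quantile normalization and to 1.15 without HFC Day 1 and HF75 Week 3. Btg2, a brake on cell division, differed by -3.43 and Gadd45b, a stress sensor, by -5.32, both without overlap, and so did Ier3 (-5.35), Ier5 (-3.69) and the nuclear protein Csrnp1 (-5.65).

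Cytokines and chemokines were among the genes with the largest differences. Il6, which encodes the cytokine interleukin 6, was at -6.05, -7.14, -6.78, -6.86, -6.11 and -6.69 on the low arrays, where it was never well above background, and at 2.03 to 6.90 (median 5.03) on the others. It was at least 1797-fold lower. Cxcl1, a chemokine that draws neutrophils, was at -4.38, -4.90, -6.09, -5.44, -5.94 and -4.17 against 1.52 to 6.51 (median 4.53), a difference of -9.73, and was well above background on 4 of the 6 low arrays. Between the highest low array and the lowest of the others the gap was 5.69 for Cxcl1, against 4.67 for Fos, the widest gap of the score genes.

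The related chemokine Cxcl2 was at least 153-fold lower and Csf3, the growth factor of granulocytes, at least 254-fold lower, and neither was well above background on any low array. The macrophage chemokines Ccl3 and Ccl4 differed by -7.51 and -8.17, and the cytokines Il1b and Tnf by -6.43 and -5.73. Nfkbia, an inhibitor in the NF-kB pathway, and Nfkbiz, of the same protein family, differed by -3.84 and -5.21. Tnfaip3, which damps that pathway, differed by -5.26. All of these were without overlap. Ptgs2, the inducible enzyme of prostaglandin synthesis, was at least 31.9-fold lower.

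Of 16 inflammatory genes compared, 10 were below every other array and all 16 had a lower mean, with a median difference of -5.39. The mean of the list was -3.77 to -2.30 on the low arrays and 0.28 to 4.08 on the others. Ccl2, a monocyte chemokine, was at -1.83 to 0.96 on the low arrays and at 0.17 to 7.38 on the others, which overlap. Saa3, Il33, Lif, Ptx3 and Il1rn overlapped too. The macrophage list itself, with markers such as Emr1 and Cd68, had none of 11 genes without overlap, a median difference of -0.35 (0.29 within the time point, 0.52 within the scan day and 0.10 without HF75 Week 3), and list means of -2.07 to 1.79 on the low arrays against -0.84 to 2.26 on the others.

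**Figure D3:**
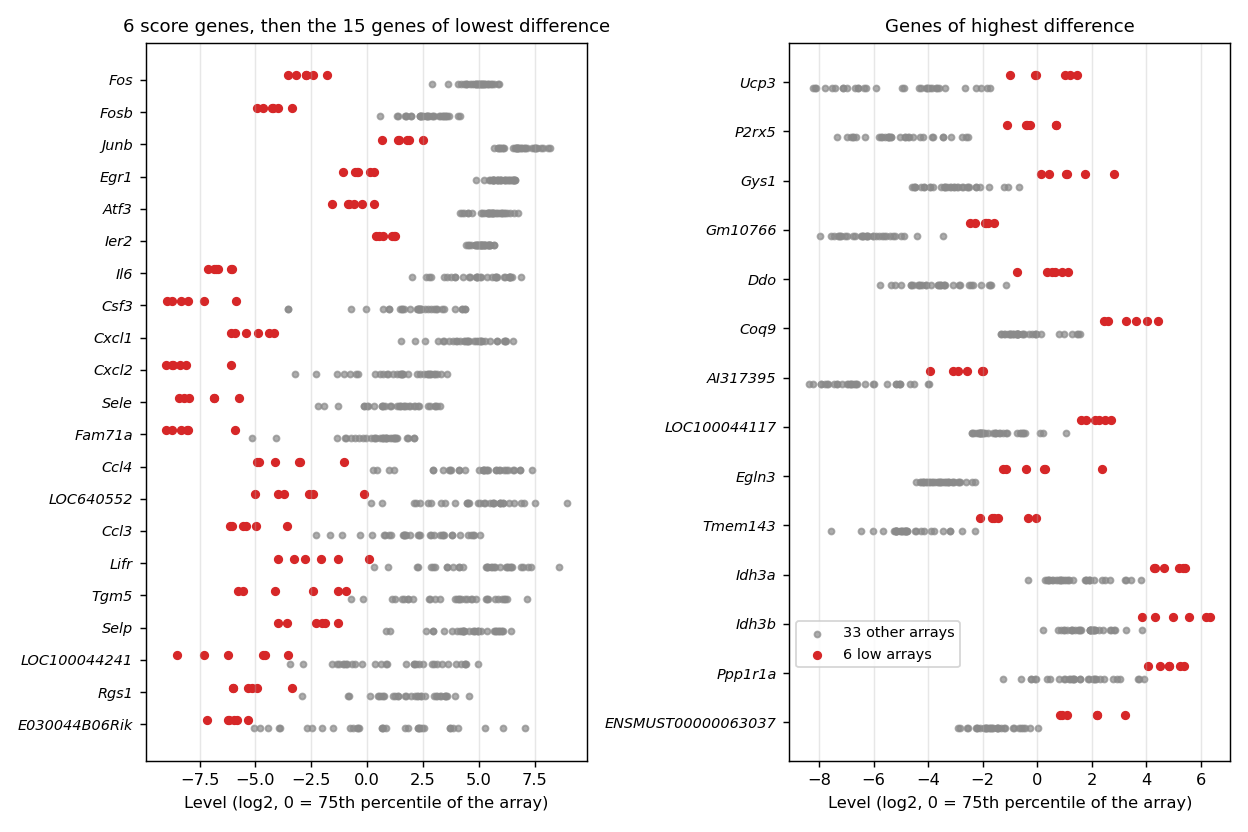
Level (log2 relative to the 75th percentile of the array) of the score genes and the 15 lowest genes (left) and genes of highest difference (right), with 1 point per array and colour for low and other arrays. For each of the score genes, and for Il6 and Cxcl1, every low array lies below every other array.

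The promoters of 4 genes of the score and of 3 inflammatory genes with large differences are shown because members that move together may be compared in sequence. They are the 250 bases before the RefSeq start on GRCm38.p6, written 5′ to 3′ on the strand of the gene. Fos is at chr12:85473640-85473889 on the + strand, Fosb at chr7:19310046-19310295 on the - strand, Junb at chr8:84978749-84978998 on the - strand, Atf3 at chr1:191183334-191183583 on the - strand, Il6 at chr5:30012864-30013113 on the + strand, Cxcl1 at chr5:90890995-90891244 on the + strand and Cxcl2 at chr5:90903649-90903898 on the + strand. Capitals mark the motifs searched on both strands, which were the cyclic AMP response element TGACGTCA, its half-site TGACG, the AP-1 site TGANTCA, the Egr site GCGNGGGCG, the TATA box TATAAA, and the CArG box and the NF-kB site by their usual consensus. The half-site was added after these sequences had been read, and it lies inside the full element.
Fos: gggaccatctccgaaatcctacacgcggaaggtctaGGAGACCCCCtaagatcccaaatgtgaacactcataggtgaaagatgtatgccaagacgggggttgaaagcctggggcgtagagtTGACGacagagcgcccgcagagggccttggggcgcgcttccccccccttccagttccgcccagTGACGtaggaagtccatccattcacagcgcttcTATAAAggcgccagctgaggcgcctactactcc
Fosb: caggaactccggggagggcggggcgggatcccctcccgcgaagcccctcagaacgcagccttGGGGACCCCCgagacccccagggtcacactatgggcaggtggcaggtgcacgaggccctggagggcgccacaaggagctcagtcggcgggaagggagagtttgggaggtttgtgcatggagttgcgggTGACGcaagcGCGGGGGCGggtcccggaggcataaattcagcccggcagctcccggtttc
Junb: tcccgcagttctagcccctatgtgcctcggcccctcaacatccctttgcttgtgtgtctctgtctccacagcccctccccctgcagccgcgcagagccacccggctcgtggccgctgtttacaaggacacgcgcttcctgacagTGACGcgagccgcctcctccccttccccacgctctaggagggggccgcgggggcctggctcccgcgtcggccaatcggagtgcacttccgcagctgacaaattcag
Atf3: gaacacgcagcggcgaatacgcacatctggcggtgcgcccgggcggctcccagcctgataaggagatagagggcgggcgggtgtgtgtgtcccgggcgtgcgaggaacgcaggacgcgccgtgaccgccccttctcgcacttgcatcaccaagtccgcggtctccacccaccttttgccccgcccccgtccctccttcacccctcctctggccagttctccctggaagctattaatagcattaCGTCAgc
Il6: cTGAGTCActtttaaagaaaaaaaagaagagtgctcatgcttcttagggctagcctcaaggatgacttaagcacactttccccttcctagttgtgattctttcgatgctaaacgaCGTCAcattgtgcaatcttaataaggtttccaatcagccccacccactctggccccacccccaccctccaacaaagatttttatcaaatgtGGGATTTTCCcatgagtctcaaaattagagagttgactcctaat
Cxcl1: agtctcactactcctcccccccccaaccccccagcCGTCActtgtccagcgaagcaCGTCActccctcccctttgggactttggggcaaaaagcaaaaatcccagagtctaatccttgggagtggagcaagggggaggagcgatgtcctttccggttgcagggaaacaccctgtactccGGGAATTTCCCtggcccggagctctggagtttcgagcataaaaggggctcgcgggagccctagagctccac
Cxcl2: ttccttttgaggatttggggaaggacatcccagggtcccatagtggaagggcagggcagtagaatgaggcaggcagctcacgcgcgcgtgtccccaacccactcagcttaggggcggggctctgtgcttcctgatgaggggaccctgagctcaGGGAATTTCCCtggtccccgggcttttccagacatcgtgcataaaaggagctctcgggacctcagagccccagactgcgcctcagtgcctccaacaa

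The half-site was present 2 times in Fos and Cxcl1 and 1 time in Fosb, Junb, Atf3 and Il6, and was not in the window of Cxcl2. The NF-kB consensus was present in Fos, Fosb and Il6, and as 2 matches that overlap by 9 bases in Cxcl1 and in Cxcl2. An AP-1 site was found in Il6, an Egr site in Fosb and a TATA box in Fos, while the full cyclic AMP response element and the CArG box were in none of the 7 windows. Among all 32851 promoters of the RefSeq table the half-site was in 17.8%, the NF-kB site in 7.25%, the AP-1 site in 6.75%, the Egr site in 4.7%, the TATA box in 12.4%, the full element in 1.55% and the CArG box in 1.47%.

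Of the 376 genes that were lower without overlap, 234 had a promoter in the table, with 305 promoters in all. The half-site was in 30.2% of these, the NF-kB site in 13.8%, the Egr site in 13.4%, the AP-1 site in 9.51%, the full element in 4.59%, the CArG box in 1.97% and the TATA box in 12.8%. Among the 362 promoters of the genes that were higher without overlap the shares were 30.1% for the half-site, 8.01% for the NF-kB site, 5.52% for the Egr site, 5.52% for the AP-1 site, 3.04% for the full element, 0.552% for the CArG box and 3.87% for the TATA box. For the promoters of all genes compared they were 22.9%, 8.83%, 7.58%, 5.39%, 2.21%, 1.35% and 8.8% in the same order. The half-site was thus about as frequent among higher as among lower genes. The Egr, NF-kB, AP-1 and TATA motifs, the full element and the CArG box were more frequent among the lower genes than among the higher ones. The CArG box was in only 6 promoters of lower and 2 of higher genes. These shares are descriptions of the sequence and carry no test.

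Genes by which the vessel wall holds white blood cells and controls clotting were lower on the low arrays. This list of 9 genes was put together after the values had been seen, so its counts only describe it. Sele, which encodes E-selectin, was at -6.87, -7.96, -8.20, -8.42, -5.74 and -6.87 on the low arrays and at -2.19 to 3.26 (median 1.46) on the others, and was at least 147-fold lower. Selp, which encodes P-selectin, differed by -7.09 and the adhesion molecules Icam1 and Vcam1 by -4.62 and -3.29. In all, 7 of the 9 genes were without overlap, and the list mean was -2.39 to -1.43 on the low arrays against 0.49 to 3.83 on the others.

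Markers of the vessels were lower too, by less. Of 8 endothelial genes all had a lower mean on the low arrays, and 1 (Cdh5, the cadherin of endothelial junctions, at 2.26 to 2.62 against 2.83 to 6.14) was without overlap. The endothelial list mean was 0.94 to 1.81 on the low arrays and 1.61 to 4.51 on the others, with a median difference of -2.02. Of 7 smooth muscle and pericyte genes 6 had a lower mean, and 1 of these, Tagln, an actin-binding protein of smooth muscle, was below every other array. Des, which encodes desmin of smooth and skeletal muscle, had a higher mean on the low arrays, by 2.44, with overlap. The list mean was 1.32 to 2.77 against 1.30 to 5.10. These vessel markers moved with the immediate-early and adhesion genes, and their part in those results was not tested. In bulk tissue, fewer cells of a type and less RNA per cell cannot be told apart.

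In the heat shock list, 2 of 12 genes were below every other array. Hspa1a, the inducible chaperone HSP70, was at 1.02, -1.36, 0.06, -1.26, 1.48 and -0.86 on the low arrays and at 4.87 to 8.31 (median 6.41) on the others, a difference of -6.50. Dnajb1, its partner, differed by -2.13 without overlap. Hspa8, the chaperone that cells make at all times, was at 4.87 to 6.32 against 5.58 to 6.95, and the mitochondrial chaperones Hspd1 and Hspe1 had a higher mean on the low arrays, by 1.68 and 0.98, with overlap. The list mean was 2.96 to 3.95 against 3.63 to 5.64.

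Of 14 genes that answer glucocorticoids or cyclic AMP, Mt2, which encodes a metal-binding metallothionein, was the only one without overlap. It was at 1.14, 0.92, 3.46, 1.81, 2.88 and 2.78 on the low arrays and at 5.01 to 8.27 (median 6.46) on the others, where 20 arrays were saturated. The glucocorticoid targets Fkbp5 and Tsc22d3 differed by -1.18 and -0.57 and overlapped, and turned to 0.19 and 0.15 against arrays of the same time point and to 0.21 and 0.09 against those of the same scan day. Among 12 genes of MAP kinase feedback, Phlda1 (-3.31) and Dusp6 (-1.44) were without overlap, and the transcription factors Etv4 and Etv5 had a higher mean on the low arrays, by 0.93 and 1.05, with overlap (-0.26 and -0.23 under normexp, another background correction). The list mean was -1.54 to -1.33 on the low arrays and -1.02 to 0.56 on the others. None of 15 clock genes and none of 12 endoplasmic reticulum stress genes was without overlap, with median differences of -0.42 and -0.76.

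Genes of mitochondrial energy metabolism were higher on the low arrays. Of 21 genes of oxidative phosphorylation, 7 were above every other array and none below, and the median difference was 2.05. The list mean was 5.11 to 6.83 on the low arrays and 3.12 to 5.00 on the others. Sdhb, an iron-sulphur subunit of succinate dehydrogenase, was at 6.04, 5.44, 5.79, 4.76, 6.25 and 5.08 on the low arrays and at 1.15 to 4.54 (median 2.26) on the others, a difference of 3.21. Sdha (2.92), Ndufs1 (2.86), Ndufv2 (2.72), Uqcrc1 (2.63), Ndufs4 (2.17) and Ndufa1 (1.82), subunits of respiratory complexes, were the other 6 without overlap. Atp5a1, a subunit of ATP synthase, was saturated on every low array and was at least 3.08-fold higher, with overlap.

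A list of 18 genes of pyruvate dehydrogenase and the citric acid cycle, also added after the values had been seen, had 9 genes without overlap, all higher, and a median difference of 2.49. Idh3a, the catalytic subunit of isocitrate dehydrogenase, was at 5.36, 4.66, 5.21, 4.31, 5.44 and 4.28 on the low arrays and at -0.33 to 3.83 (median 1.12) on the others, a difference of 3.43. Idh3b, a further subunit of that enzyme, differed by 3.35, Dlat of the pyruvate dehydrogenase complex by 3.13 and Suclg1 of succinyl-CoA ligase by 3.04. The mean of the list was 4.29 to 5.42 on the low arrays and 1.64 to 4.19 on the others, so it did not overlap either.

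The gene with the largest higher difference without overlap was Ucp3, a mitochondrial carrier of muscle and fat. It was at 1.02, 1.45, 1.22, -1.0, -0.07 and -0.04 on the low arrays and at -8.22 to -1.73 (median -4.90) on the others, a difference of 5.58. It was well above background on all 6 low arrays but on 16 of the 33 others, so the size of its difference and its rank rest in part on signals near background. The lowest of the low arrays was above the highest of the others. P2rx5, a channel opened by ATP (4.89, well above background on 21 of the others), Gys1, the glycogen synthase of muscle and other tissues (4.32), Ddo, which oxidises D-aspartate (4.02), and Coq9, needed to make coenzyme Q (3.74), were also among the genes of highest difference.

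Genes that respond to low oxygen did not move one way. Egln3, a prolyl hydroxylase that is induced by hypoxia, was at -1.25 to 2.39 on the low arrays and at -4.45 to -2.28 on the others, and the glycolytic enzyme Pgk1 was at 5.04 to 7.65 against 3.00 to 4.97. Adm, a vasodilator hormone, was at -1.72 to -0.63 against -0.20 to 2.92, and the glucose transporter Slc2a1 was at 0.20 to 0.78 against 0.96 to 3.76. Of 10 hypoxia genes compared, therefore, 2 were higher and 2 lower without overlap. Slc2a4, the insulin-regulated glucose transporter of fat and muscle, went the other way from Slc2a1, with 4.88 to 7.34 on the low arrays and 1.26 to 5.02 on the others, which overlapped by 1 low array.

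Skeletal muscle RNA moved with the higher genes. All 10 muscle genes had a higher mean on the low arrays, with a median difference of 5.65, but none was without overlap. The list mean was 7.39 on HF75 Week 3, 5.99 on HFC Day 1, 4.99 on HFC Day 6, 4.32 on LFC Day 6, 3.51 on HFC Day 10 and 1.59 on LFC Week 12, and -4.46 to 6.06 (median -1.22) on the others. Myh4, a fast myosin heavy chain, was at 4.97 to 7.42 on the low arrays and at -7.67 to 6.59 on the others, and creatine kinase of muscle (Ckm) at -0.23 to 7.93 and at -8.16 to 5.69. Only HF5 Week 12 (6.06) and HF20 Week 18 (2.50) of the other arrays had a list mean above that of LFC Week 12.

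A high muscle signal was not always found with a low score. HF5 Week 12, with a muscle list mean of 6.06, had a score of 4.81, and HF20 Week 18, with 2.50, had a score of 5.76. The oxidative phosphorylation mean of HF5 Week 12 was 4.68 and that of HF20 Week 18 was 3.77, while LFC Week 12, with less muscle signal than both, had 5.43. On HF75 Week 3, with the most muscle signal of all arrays, it was 6.83. The thermogenic list mean was 1.55 on LFC Week 12, -0.25 on HF5 Week 12, -1.34 on HF20 Week 18 and -0.16 on HF75 Week 3. Of the other arrays HF20 Week 12 was highest for both lists, with 5.00 for oxidative phosphorylation and 2.63 for the thermogenic list. Over the 33 other arrays the muscle list mean correlated with the oxidative phosphorylation mean at r = 0.438 (rho 0.396) and with the score at r = -0.057 (rho 0.00067), and over the 6 low arrays at r = 0.824 (rho 0.943) with oxidative phosphorylation and at r = -0.263 (rho -0.429) with the score, as a description of arrays that share diets and time points. The part of muscle RNA or of thermogenic tissue in the differences of the metabolic genes was not tested.

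**Figure D4:**
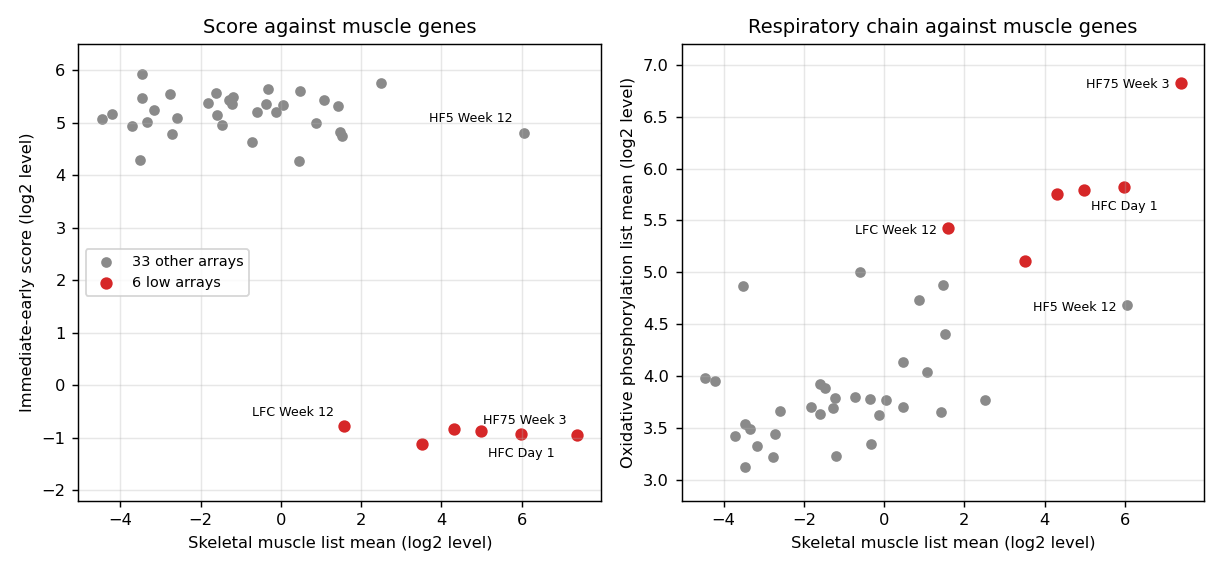
Immediate-early score (left) and oxidative phosphorylation list mean (right) against the skeletal muscle list mean, all as log2 levels, with 1 point per array. The 6 low arrays range from 1.59 to 7.39 in muscle signal at nearly the same score, and HF5 Week 12 combines a muscle mean of 6.06 with a score of 4.81.

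The low arrays were of 2 kinds by their whole profile. HFC Day 1 and HF75 Week 3, the pair with the most muscle signal, correlated at 0.952 with each other over the genes compared and at 0.865 to 0.899 with the other 4 low arrays, which correlated at 0.946 to 0.971 among themselves. Adipocyte genes followed the same division. The adipocyte list mean was 2.13 on HFC Day 1 and 2.87 on HF75 Week 3 and 5.13 to 5.53 on the other 4 low arrays, against 1.19 to 5.17 on the others. The lipogenesis list mean was 1.74 and 1.66 on that pair and 3.95 to 5.38 on the other 4, against -0.62 to 4.04. Of the 33 other arrays HFC Week 3 was most like the 4 arrays, with correlations of 0.929 to 0.961.

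Without the pair of most muscle signal, 565 genes (2.49% of those compared) were lower and 826 (3.64%) were higher on the 4 remaining low arrays without overlap. All 376 genes that were lower on the 6 are among the 565, as they must be. Fos differed by -7.88 in this comparison. The median difference of the macrophage list was 0.55 and that of the cell cycle list 1.05 in this comparison, the opposite sign to that over all 6 low arrays. The clock list had a median of -1.28, with Nr1d2 (-1.71), a nuclear receptor of the clock, and Gm129 (-4.48) below every other array. The adipocyte list had a median of 2.19, with Lipe, the hormone-sensitive lipase (2.79), Retn, which encodes resistin (3.83), and Cebpa, a transcription factor of adipocytes (3.43), above every other array. So was Agpat2 of the lipogenic list (4.77), an enzyme of triglyceride synthesis, and of the endoplasmic reticulum stress list Herpud1 (-0.999) was below and Asns, which makes asparagine (1.74), above every other array. The choice to leave out these arrays was made after the muscle values had been seen.

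The other lists for cell types and functions gave no gene without overlap over all 6 low arrays. Their median differences were 3.29 for 9 thermogenic genes, 2.13 for 12 lipogenic genes, 1.14 for 14 adipocyte genes, -1.22 for 10 lymphocyte genes, -1.83 for 6 epithelial genes, -0.61 for 5 skin genes, -0.37 for 20 genes of the cytoplasmic ribosome, -0.22 for 8 fibroblast genes, -0.06 for 15 cell cycle genes and -0.01 for 3 red blood cell genes. Ucp1, the uncoupling protein of brown fat, was at -3.36 to 6.48 on the low arrays and at -3.91 to 6.51 on the others. The cell cycle list mean was -3.18 on HFC Day 1, -3.08 on HF75 Week 3 and 0.52 on LFC Day 6, against -2.32 to 0.36 on the others, so the low arrays held both the lowest and the highest values of the 39.

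**Figure D5:**
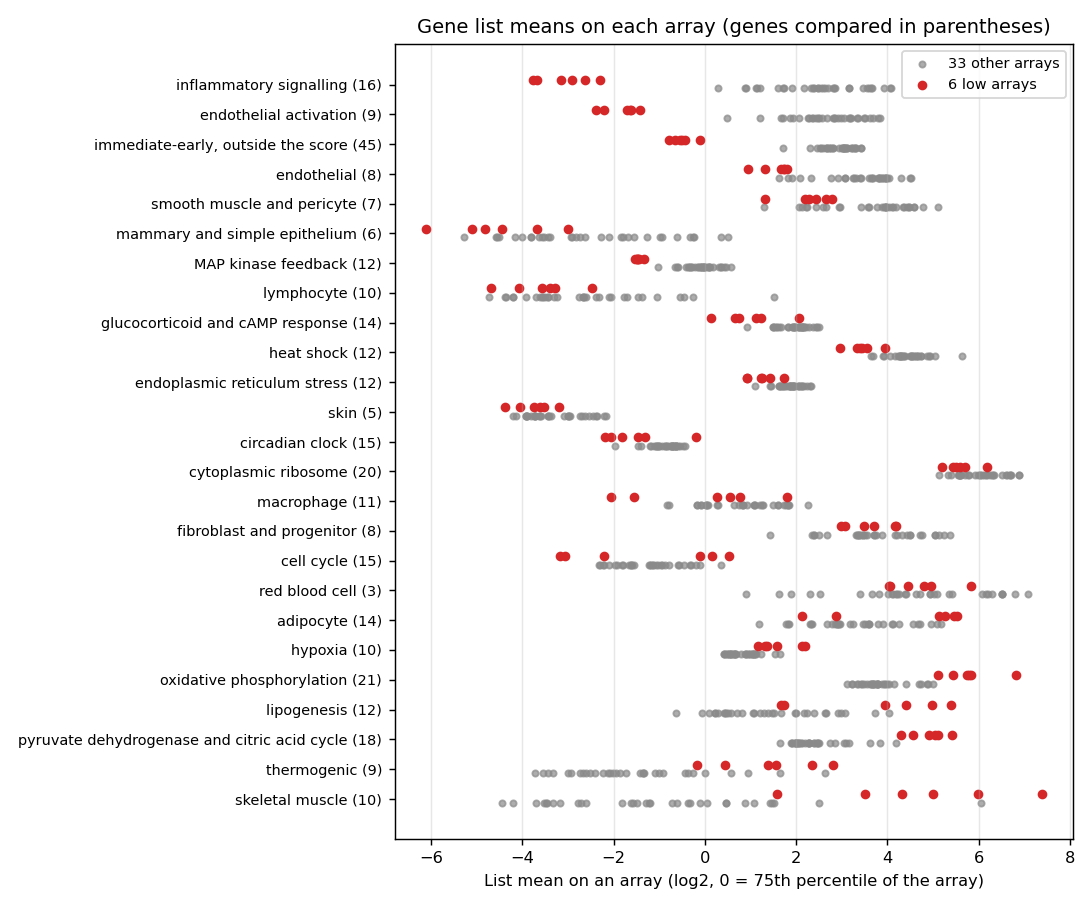
Mean level of each gene list (log2) on every array, low arrays and other arrays apart, in the order of the median difference. The immediate-early and inflammatory lists lie lower on all 6 low arrays and the oxidative phosphorylation list higher, while the muscle list overlaps.

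The low arrays were also set against other arrays of the same time point, which exist for HFC Day 10, HF75 Week 3 and LFC Week 12. The mean difference of these 3 arrays was -6.99 for Fos and -8.91 for Cxcl1. The median over the immediate-early list was -3.0, over the inflammatory list -4.65, over oxidative phosphorylation 1.38, over the citric acid cycle list 1.70 and over the muscle list 3.71. The 3 low arrays that shared a scan day with other arrays differed from them by -6.94 for Fos and by -8.74 for Cxcl1, with medians of -3.07 for the immediate-early, -4.23 for the inflammatory and 1.21 for the oxidative phosphorylation list. Smaller differences than over all 6 were also found for the thermogenic list, with a median of 1.09 within the time point and 0.70 within the scan day, for the lipogenic list, with 1.29 and 1.19, and for the adipocyte list, with 0.77 and 0.62. Ucp1 turned from 3.61 to -1.17 within the time point and -1.78 within the scan day, and Cidea, a lipid droplet protein of brown fat, from 3.29 to -0.01 within the scan day. These values rest on 3 low arrays each. The arrays they were set against, by time point or by scan day, were all of other diets, so diet was not held fixed. Over all 6 low arrays the medians of the first 5 lists were -3.44, -5.39, 2.05, 2.49 and 5.65 in the order given.

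The genes most like the score over the 39 arrays were Socs3, Zfp36, Ier5, Cxcl1, Il6, Csrnp1, Nfkbiz, Cyr61, Dusp2 and Myc, and among the least like it were Ndufs1, Jagn1, 1110008F13Rik and Harbi1. Over all arrays this measure mostly repeats the difference between the low and the other arrays, so the correlation was taken within the 33 others. There the correlation with the score was 0.879 for Zfp36, 0.783 for Nfkbiz, 0.640 for Myc, 0.635 for Cxcl1, 0.618 for Ier5, 0.589 for Socs3 and 0.577 for Csrnp1. It was weaker for Il6 (0.474), Cyr61 (0.394) and Dusp2 (0.328), and was -0.479 for Ndufs1. Of genes outside this list, Hspa5 (0.827) and Ifrd1 (0.798) ranked above Nfkbiz there. Within the 6 low arrays, whose scores span little, the correlation was below 0 for Dusp2 (-0.716), Myc (-0.626), Ier5 (-0.325), Zfp36 (-0.194) and Il6 (-0.134) and 0.081 to 0.419 for the other 5. These correlations are over arrays that share diets and time points and are given as a description.

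Probes of the same gene were compared within 87 genes, where a gene had several. These were the score genes, the further immediate-early genes, the lowest 15, the highest 15 and the genes most and least like the score. Members of the other lists were not compared by probe unless they were among these. Of 44 measured probes for 18 genes, 1 had the opposite sign, a second probe of Klf2 at 0.72. A dimmer probe overlapped for Ier2 (-2.16), Gadd45b (-5.10), Fosl2 (-3.69), Csrnp1 (-2.78) and Ptgs2 (-6.41), whose brightest probe did not. All probes of Junb, Selp, Zfp36, Myc, Dusp1, Btg2, Klf6, Gm10766 and Ppp1r1a were without overlap. Lifr, the receptor of leukaemia inhibitory factor, differed by -7.17 without overlap on its brightest probe, but its 5 other probes differed by only -0.36 to -1.40 and all overlapped, so the value of Lifr rests on 1 probe. The remaining genes among the lowest 15 were Fam71a (at least 75.4-fold lower), LOC640552 (-7.77), the transglutaminase Tgm5 (-7.15), LOC100044241 (-7.08), Rgs1, a brake on G protein signalling (-7.00), and E030044B06Rik (-6.75). Among the highest 15 were also Gm10766 (4.20) and AI317395 (3.68), which were well above background on 6 and 9 of the 33 others, LOC100044117 (3.56), Tmem143 (3.52), Ppp1r1a, an inhibitor of protein phosphatase 1 (3.31), and ENSMUST00000063037 (3.30).

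Whether the immediate-early genes differed by diet was tested on comparisons that the rule did not use. HFC and LFC were compared with limma over the 10 time points that have both, 10 arrays each, with the time point as a block. No gene of 19874 had an adjusted p under 0.05 (0% called, with 1157 at an unadjusted p under 0.05). Fos differed by 0.14 (log2, SE 1.00, limma adjusted p = 0.984) and Junb by -0.47 (SE 0.63, limma adjusted p = 0.892). The sign of Fos turned without Week 12 and with the scan day in place of the time point, and that of Junb without Day 10. Fos differed by 0.98 without Day 10, by -0.68 without Week 12 and by -0.86 with the scan day in place of the time point, and Junb by 0.09, -0.92 and -1.07. Of 43 further immediate-early genes tested, none was called. The low arrays in this fit were 2 of LFC and 2 of HFC, with both arrays of Day 6 among them. Without the time points of low arrays, a fit added after the values had been seen, again no gene was called.

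Late time points (Week 3 to Week 18, 12 arrays) were compared with early ones (Day 1 to Week 0, 9 arrays) over LFC and HFC with diet as a covariate. Of 20534 genes 22 were called by limma, which is 0.107%, with 14 higher and 8 lower at late time points, and 3284 had an unadjusted p under 0.05. None of the 6 score genes and none of the 43 further immediate-early genes was called. The late minus early difference of Fos was 2.69 (SE 1.35, limma adjusted p = 0.327) and that of Junb 2.39 (SE 0.84, limma adjusted p = 0.195). Of the early arrays 4 of 9 were low arrays, and of the late arrays 1 of 12. Leaving out single low arrays gave 5 to 56 called genes, with 15 higher and 28 lower without HFC Day 1. Without the low arrays, a fit added after the values had been seen, 1 gene was called. The score genes are not read from that fit, because the arrays left out were chosen by their levels.

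At an unadjusted p under 0.05 were 21 of the 43 further immediate-early genes, with a median difference of 1.32 over the list, against 3284 of all 20534 genes and a median of -0.02. The 4 low arrays among the early ones move with these values, and their part was not tested. Among the called genes, Igh and Igj, which encode parts of antibodies, were higher at late time points by 5.13 (SE 0.85, limma adjusted p = 0.0207) and 4.30 (SE 0.74, limma adjusted p = 0.0291). Sult1e1, which inactivates oestrogens, was higher by 6.41 (SE 1.01, limma adjusted p = 0.0168), and Nrk, a kinase, was lower with a difference of -3.65 (SE 0.48, limma adjusted p = 0.0023). With the scan day as a random block, Nrk (limma adjusted p = 0.0239) was still called, while Sult1e1 (0.0999), Igh (0.128) and Igj (0.153) were not, with differences of -3.85, 6.74, 5.49 and 4.49 in this order. Without the low arrays the limma adjusted p was 0.118 for Nrk, 0.29 for Igh and Sult1e1 and 0.321 for Igj, so none of the 4 was called. The differences in that fit were of the same sign and smaller, at -2.68 for Nrk, 3.31 for Igh and Igj and 4.07 for Sult1e1. Igh and Igj were also not called without HFC Day 10, with differences of 5.08 and 4.235, or without LFC Day 6, with 4.92 and 4.213. Igj was not called without HFC Day 6, with a difference of 4.216. Nrk was not called under normexp, where its difference was -0.999 (limma adjusted p = 0.397). None of the 16 inflammatory, 10 muscle or 18 citric acid cycle genes was called, a count from which nothing is read at this share of calls. At an unadjusted p under 0.05 were 11 of the inflammatory genes (median difference 2.54), all 10 muscle genes (-3.02) and 12 of the citric acid cycle genes (-1.02).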

How the data were processed

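RNA of mouse subcutaneous adipose tissue was measured on 39 Agilent 1-colour arrays. Per the file headers, the deposited intensity values came from Agilent Feature Extraction 10.5.1.1 after background subtraction and removal of spatial trends, and arrays had not been normalized to each other. The submitters' processing notes name Agilent Feature Extraction 9.1. The array files also hold flags for spots that were well above background, saturated or outliers. Files of 5 Week 9 arrays had been saved again with fewer digits, and their gene names were taken by spot from another file. A further deposited table gives, as log2 values, the fold changes that the authors computed against LFC at each time point, and was not used.

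From the 43803 non-control spots, log2 intensity minus the log2 75th percentile of the array was computed, spots of a probe were averaged, and each of 29411 gene names took its brightest of 40628 probes. Genes well above background on at least 6 arrays were compared. Levels on the low and the other arrays are described by means, ranges and whether they overlap. A gene not well above background on any low array is given as a bound, the mean of the others against the lowest signal well above background on the low arrays. The number of arrays limits the precision, and array files give no read depth.

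HFC with LFC, and late with early time points, were compared with limma 3.58.1 in R 4.3.3, with Benjamini-Hochberg adjustment over all genes and a two-sided threshold of 0.05. P-values measure the spread between arrays, which may be technical in part. The members, 23 gene lists and the tests were chosen with earlier results of these data known, and 2 further lists were added after the values had been seen. Of 324 list symbols 322 were on the array, 5 by a RefSeq synonym. Named genes were the score genes, the 15 lowest and 15 highest differences without overlap, the 10 genes most and the 5 least like the score, and up to 4 members of highest level in each list, with further list members chosen after their values were seen. Some genes that met these rules are not reported here. Promoters are those of RefSeq on GRCm38.p6, without the 50 bases after the start. Alternatives were normexp with an offset of 50, quantile normalization, other probes, filters, scores and blocks, and leaving out arrays.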

Additional observations from a re-analysis of the deposited data

Results flagged for a closer look

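The 4 diets with 6 to 10 arrays were searched for single arrays that stand apart from the rest of their diet by Dixon's ratio, over 32 measures, and 19 of 128 ratios passed. Chance passes about 1 in 20, but this count cannot be set against it, since 7 of the 19 are the score and its genes on HF75 Week 3, an array chosen by those values, and many of the other measures move together. HF75 Week 3 was the lowest of its diet for the score (-0.95, the nearest at 4.96), Fos (-1.79), Fosb (-4.92), Junb (1.87), Egr1 (-1.06), Atf3 (-0.22) and Ier2 (0.40), since it is the only low array among the 6 of HF75. It was also the lowest for the means of the immediate-early list (-0.11), the inflammatory list (-3.77), the endothelial activation list (-2.21) and the endoplasmic reticulum stress list (0.93), and the highest for the hypoxia list (2.18) and the pyruvate dehydrogenase and citric acid cycle list (5.42).

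HF20 Week 12, which is on the high side, was the lowest of its diet for Fosb (1.33) and the highest for the thermogenic list (2.63), the oxidative phosphorylation list (5.00) and the pyruvate dehydrogenase and citric acid cycle list (4.19). HF75 Week 9 was the highest of its diet for the lymphocyte list (-0.27), and HF5 Week 9 was the lowest of its diet for the endothelial list (1.91). LFC holds a pair of low arrays, neither of which stood apart in this way, and HFC, with 11 arrays, was not searched.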

How the results depend on the processing

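The same 6 arrays had the lowest scores under normexp, quantile normalization and the mean of all probes. So they did without outlier spots and with each gene of the score left out. Taking 5 or 7 arrays cuts the same order of scores elsewhere and cannot test the choice. With the score centred by time point only 3 of the 6 were chosen, and 0 genes were lower and 0 higher without overlap. The counts of 376 lower and 476 higher genes became 228 lower under normexp (which moved the median of all genes to -0.37), 152 and 163 with 5 arrays, and 139 and 28 with 7 arrays. They became 565 and 826 without HFC Day 1 and HF75 Week 3, 2225 and 2293 for the 3 low arrays against others of their time point, and 2485 and 2422 for the 3 against others of their scan day, where fewer arrays are compared. Leaving out each low array gave 386 to 466 lower and 501 to 830 higher genes, with 830 without HFC Day 10. The 49 genes of the score, the extremes and the likeness kept their sign under these settings, as did 56 further list members without overlap. None of these overlapped over all 6 low arrays, so leaving out arrays or matching by time point or scan day could not turn their sign. Only settings that change the levels or the choice of arrays could do so. Of 247 list members with overlap 80 turned sign under at least 1 setting, among them Saa3 (0.20 without HFC Day 1 and HF75 Week 3) and, against other arrays of the same time point, Fkbp5 (0.19), Tsc22d3 (0.15) and Ucp1 (-1.17). The medians of the macrophage, fibroblast, ribosome, cell cycle and red blood cell lists turned sign too, and were within the SD of the list mean over the other arrays, except for the cell cycle list without HFC Day 1 and HF75 Week 3 (1.05 against an SD of 0.71). HFC against LFC gave 0 genes under all 12 alternatives (470 to 3343 at an unadjusted p under 0.05), while the difference of Fos ranged from -0.86 to 0.98 and that of Junb from -1.07 to 0.09. Late against early gave 22 genes, and 7 under normexp, 65 under quantile normalization, 7 with no filter, 7 with a filter on every array, 2 with the scan day as a random block and 1 without all low arrays. Leaving out each low array gave 5 to 56, with 5 without HFC Day 10 or LFC Day 6, 8 without HFC Day 6, 43 without HFC Day 1 and 56 without LFC Week 12. The cause of these shifts was not tested. The labels give no replicate numbers, so no replicate block was used, and HFC and LFC were paired by time point in the fit. Saturated spots limit the size of the differences for the brightest genes.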
